A study of Mus musculus with 18 samples.

Results

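The change of the transcriptome between confluence (D0) and day 2 of differentiation (D2) was examined in LAP2α knockout (KO) myoblasts. All 3 KO D2 libraries and all 3 KO D0 libraries were taken by their labels, 6 of the 18 RNA-sequencing libraries of the series, and every gene was compared between them. The cells are immortalized mouse myoblasts that lack p53, and the wildtype (WT) controls, which also lack p53 and carry the Cas9 vector without a guide, had 3 libraries at each of the same stages. The KO cells received Cas9 with a guide against LAP2α and were used as a sorted pool, not as a clone. D0 cells were harvested near confluence in medium with 20% serum, and D2 cells after 48 h in medium with 5% serum, both on collagen-coated plates, so time and serum level cannot be told apart in this comparison. The labels do not say whether replicate libraries came from separate cultures, so the p-values measure only the spread between libraries. That spread was estimated over all 18 libraries of the series, not over the 6 alone.

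When myoblasts differentiate, the bHLH factors MyoD and myogenin act with MEF2 proteins on muscle genes, the cells leave the cell cycle with the help of p21 and the retinoblastoma protein, and they fuse through the membrane proteins myomaker and myomixer. Sarcomeres, the triads that couple excitation to calcium release, and the receptor clusters of the neuromuscular junction are built afterwards. LAP2α is the nucleoplasmic isoform of the lamina-associated polypeptide 2 gene Tmpo; it binds lamin A/C and the retinoblastoma protein.

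The KO libraries held 32826319 to 41619016 expected counts, and 3 counts corresponded to 0.0651 to 0.0981 CPM, the expected count scaled to the library total. Pearson's r of log2 CPM across genes, which are not independent replicates, was 0.949 to 0.977 within a stage and 0.882 to 0.919 between the stages. Same-numbered libraries shared a deviation that followed transcript length. In replicate 1, the 2103 genes with transcripts over 6000 bases lay a median of 0.30 (D0) and 0.39 (D2) log2 units above their group mean, and in replicate 2 they lay at -0.31 and -0.26. The 2012 genes under 1000 bases went the other way, at -0.26 and -0.31 in replicate 1 and at 0.40 and 0.28 in replicate 2. The change between the stages also differed with length, with a median log2 fold change of -0.333 for the short, 0.076 for the intermediate and 0.167 for the long transcripts. With the length trend within each group removed, 3559 genes were called in place of the 3305 given next. This removal alters the spread within groups but leaves group means and fold changes as they were. What part length has in the change between the stages was not tested.

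Between D0 and D2, 3305 of 17672 genes changed (18.7%), of which 1539 rose (8.71% of those tested) and 1766 fell (9.99%). The counts of each gene list below stand against these shares. A change was called where the limma adjusted p was under 0.05, the fold exceeded 1.5 and any of the 6 libraries reached 10 CPM. On unadjusted p-values 3992 genes passed (22.6%). The balance between the directions turned without the level of 10 CPM (2626 rose and 2158 fell), at a log2 fold change over 1.5 (710 and 510) and with library totals as the scaling (1823 and 1468). The rises were larger than the falls. The median fold was 2.66 among the genes that rose and 2.17 among those that fell. Of the genes called, 459 rose and 263 fell more than 4-fold, and 143 rose but 5 fell more than 16-fold. The D2 and D0 libraries did not overlap in 3123 of the 3305 genes, against 36.7% of all genes tested (20.2% with D2 above and 16.5% with D2 below), which the call itself favours. A block for replicate number raised the calls to 4567, among them all 3305. Leaving out D0 replicate 3 lowered the number to 2274, and fitting only the KO D0 and D2 libraries lowered it to 2237 (1124 rose and 1113 fell).

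**Figure D1:**
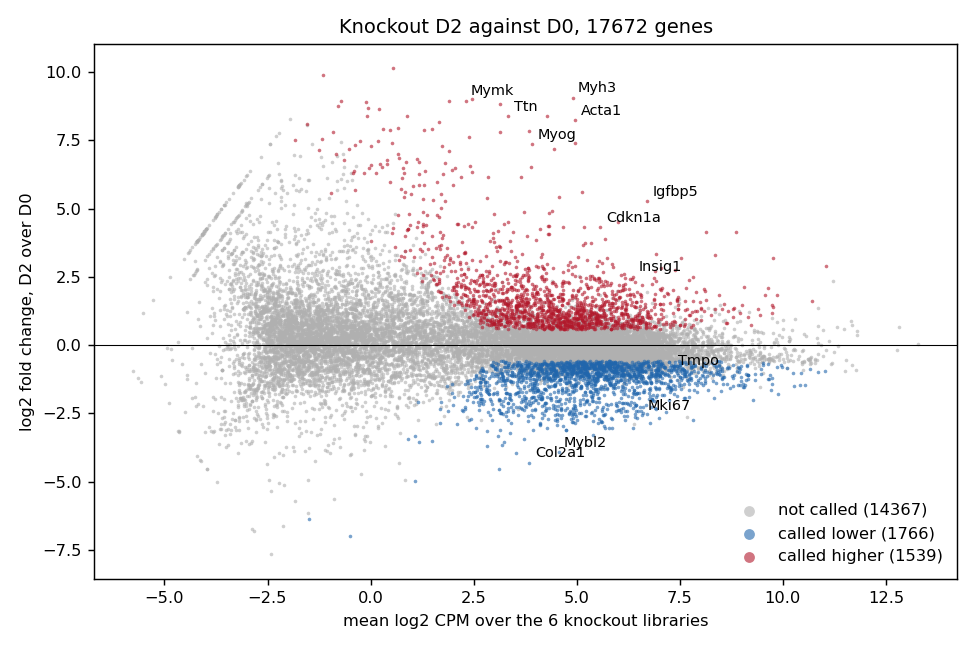
Each point is 1 of 17672 genes, with the mean log2 CPM over the 6 KO libraries on the x axis and the log2 fold change D2 over D0 on the y axis. The 1539 genes that rose reach higher on the y axis than the 1766 genes that fell reach below 0, and sarcomere genes such as Myh3 and Ttn stand near the top.

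Called genes whose libraries did not overlap were ranked by log2 of the ratio of mean CPM plus 1, not by the fitted fold change. By this rank the 10 largest rises were Myh3, Ttn, Acta1, Actc1, Casq2, Mylpf, Myl4, Mybph, Mymk and Myl1. These genes encode sarcomere proteins, the calcium store protein calsequestrin 2 and the fusion protein myomaker. Their D0 levels were low, and D0 replicate 2 was the highest D0 library for all 10. By the same rank the 10 largest falls were Col2a1, Mybl2, Serpinb2, Rps12, Irf5, Gjb2, Gm43078, Gm43041, Cd59b and Pcolce2. Mybl2, a transcription factor of the late cell cycle, measured 99.03, 67.3 and 117 CPM at D0 and 4.76, 5.76 and 8.07 CPM at D2. Every D2 library was far below the D0 libraries (log2 fold change -3.93, SE 0.32, adjusted p = 1.148e-06). Col2a1, a cartilage collagen, also fell (log2 fold change -4.30, SE 1.01, adjusted p = 0.004543), from 177, 42.6 and 35.1 CPM to 8.86, 2.12 and 1.85 CPM. In both stages replicate 1 held the most Col2a1. Rps12, a ribosomal protein gene that can share reads with pseudogenes, measured 92.1, 52.8 and 14.8 CPM at D0 and 8.32, 0.761 and 0.925 CPM at D2. Its call was lost without D0 replicate 1, D0 replicate 2, D2 replicate 2 or D2 replicate 3 (adjusted p = 0.0591 to 0.0974), and in WT its mean was 7.72 CPM at D0 and 30.4 CPM at D2. Gjb2 was below the level of a call without D0 replicate 3.

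Tmpo, the gene that encodes LAP2α (chr10:91147571-91181315, minus strand, GRCm38), was counted over all its isoforms, so its level is no check of the knockout. It measured 224, 191 and 259 CPM in the KO D0 libraries and 94.5, 108 and 157 CPM in the KO D2 libraries. The D2 libraries were all lower, and Tmpo fell by 0.93 on the log2 scale (SE 0.21, adjusted p = 0.003566). In WT its mean was 266 CPM at D0 and 138 CPM at D2. Of the 32 genes tested of the nuclear envelope and lamina list, 12 fell and 4 rose, against 9.99% and 8.71% of all genes tested. Lmnb1, which encodes lamin B1, fell by 2.26 on the log2 scale (SE 0.34, adjusted p = 0.0001353), with 298, 112 and 246 CPM at D0 and 60.4, 28.5 and 43.2 CPM at D2. Lmna, which encodes lamin A/C, measured 1209, 564 and 921 CPM at D0 and 925, 404 and 445 CPM at D2. Its stages overlapped and it was not called (adjusted p = 0.2795), though it was with the replicate block (adjusted p = 0.02231). The genes that fell also included Lmnb2, Emd (emerin), Banf1, Lbr and the heterochromatin proteins Cbx1, Cbx3 and Cbx5, and those that rose were Syne1 (nesprin-1), Tmem38a, Wfs1 and AI464131.

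Of 29 myogenic transcription factors tested, 7 rose and 0 fell, and their median log2 fold change was 0.323, against 0.056 for all genes tested. Myod1 measured 3.10, 3.54 and 3.76 CPM at D0 and 47.7, 75.2 and 48.6 CPM at D2. The D2 libraries were each more than 10 CPM while no D0 library was, and the log2 fold change was 4.01 (SE 0.53, adjusted p = 4.354e-05). Myog, which encodes myogenin, rose further, from 1.07, 3.15 and 0.50 CPM to 213, 232 and 148 CPM (log2 fold change 7.35, SE 0.69, adjusted p = 2.812e-06). Among the MEF2 genes, Mef2c rose (log2 fold change 4.13, SE 0.35, adjusted p = 1.316e-06), from 3.90, 2.16 and 2.18 CPM to 52.2, 43.1 and 43.9 CPM. Mef2a rose by 1.82 on the log2 scale (SE 0.31, adjusted p = 0.000391). Mef2d had a log2 fold change of 0.43 and was not called (adjusted p = 0.2347). Six5 and Tead4 were among the other members that rose. Myf5, a factor of undifferentiated myoblasts, was not called, with 27.4, 23.8 and 26.3 CPM at D0 and 15.5, 14.9 and 29.6 CPM at D2 (adjusted p = 0.2504). D2 replicate 3 lay above every D0 library, and without it Myf5 was called lower (adjusted p = 0.0427). Myf6 stayed under 1 CPM in each of the 6 libraries.

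The promoters of Myog and Mylpf, both of which rose, are shown for their E-boxes, CANNTG, which muscle bHLH factors bind, and were chosen after these matches were seen. The sequences are the 250 bases before the RefSeq start on GRCm38.p6, 5′ to 3′ on the strand of the gene, with E-boxes in capitals. The Myog window is chr1:134289754-134290003 (plus strand) and the Mylpf window is chr7:127211358-127211607 (plus strand).
Myog: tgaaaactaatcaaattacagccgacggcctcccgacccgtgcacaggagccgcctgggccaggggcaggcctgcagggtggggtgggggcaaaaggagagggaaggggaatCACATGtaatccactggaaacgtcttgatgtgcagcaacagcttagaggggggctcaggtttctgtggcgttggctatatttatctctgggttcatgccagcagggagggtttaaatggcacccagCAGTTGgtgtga
Mylpf: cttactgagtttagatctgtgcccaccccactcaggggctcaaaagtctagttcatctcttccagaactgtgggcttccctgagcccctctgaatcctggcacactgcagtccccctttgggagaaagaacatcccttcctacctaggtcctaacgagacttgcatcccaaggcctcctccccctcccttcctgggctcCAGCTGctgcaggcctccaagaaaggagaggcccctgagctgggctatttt
The Myog window held CACATG at positions -138 to -133 from the start and CAGTTG at positions -12 to -7, and the Mylpf window held CAGCTG at positions -51 to -46. CAGCTG, which reads the same on both strands, was present in 159 of 876 matched promoters of genes that rose (18.2%), in 110 of 1147 of genes that fell (9.6%), in 12.2% of the 9228 matched promoters of genes tested and in 12.7% of all 22862 promoters. CANNTG, of which CAGCTG is a case, was present in 66.0%, 51.6%, 57.2% and 66.3% of them. A MEF2 site was searched on both strands as CTAWWWWTAR, where W is A or T and R is A or G. It was found in 6 of 19 thick filament, 1 of 16 thin filament and 0 of 11 myogenic factor promoters. Among genes that rose it was in 21 of 876 promoters (2.4%), against 1.2% for the genes tested and 1.8% for all promoters. Sequences that differ from these letters were not counted, such as ctatatttat in the Myog window, which differs at the last base. These are matches of letters and were not tested.

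**Figure D2:**
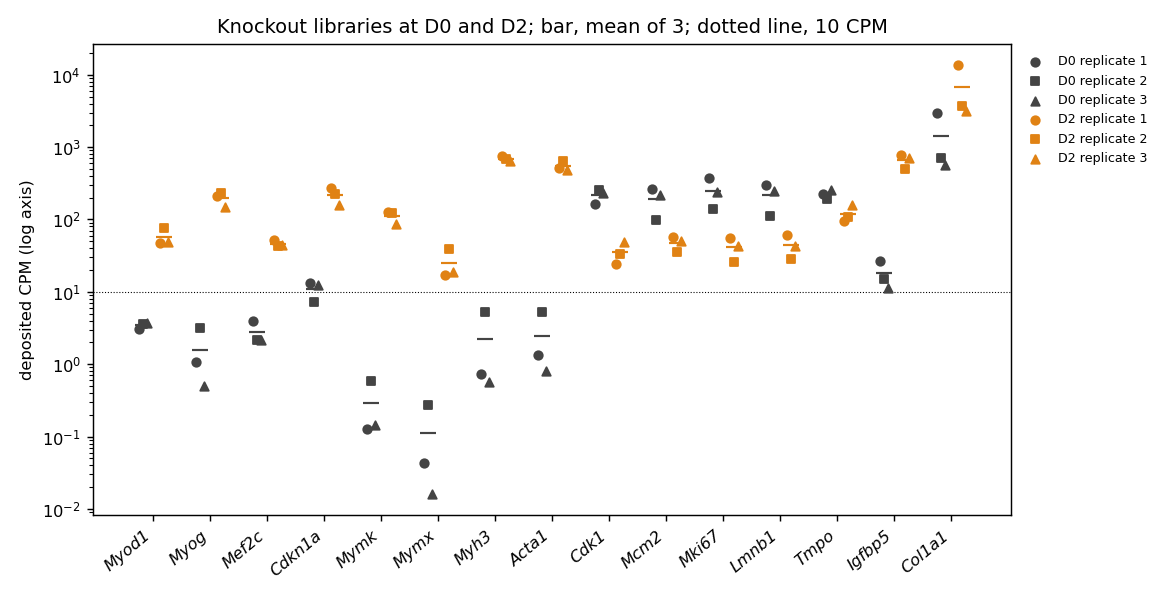
Deposited CPM on a log axis for 15 genes, with 1 point for each of the 3 KO D0 (dark) and 3 KO D2 (orange) libraries, a symbol per replicate number and a bar at the mean of 3. Myod1 to Acta1 and Igfbp5 lie higher at D2, Cdk1 to Tmpo lie lower, and Col1a1 replicate 1 is the highest library of its stage in both stages.

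Members of the list of repressors of myogenic factors moved in both directions. Of 20 members tested, 4 rose, Hes6 among them, and 3 fell, against 8.71% and 9.99% of all genes tested. The 3 that fell were Id1, Id2 and Id3, which encode proteins that bind E-proteins and keep them from pairing with MyoD. Id1 measured 129.99, 142 and 184 CPM at D0 and 48.3, 25.1 and 34.0 CPM at D2, with no overlap (log2 fold change -2.12, SE 0.27, adjusted p = 2.527e-05). Id2 and Id3 fell by 1.31 (adjusted p = 0.01468) and by 0.78 (adjusted p = 0.01977) on the log2 scale. Id2 was not called without D0 replicate 3 or without D2 replicate 3, and the call of Id3 was lost without D0 replicate 1, D2 replicate 2 or D2 replicate 3 (adjusted p = 0.0616 to 0.112 over both genes). Id3 was also not called once the length trend within groups was removed (adjusted p = 0.0645), which left its fold change as it was. The repressor list members that rose were Hes6, Bhlhe40, Bhlhe41 and Zeb1. Hes6, which is known to promote myogenesis, had 6.79 to 10.03 CPM at D0 and 35.9 to 49.5 CPM at D2 (log2 fold change 2.43, SE 0.25, adjusted p = 5.564e-06).

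Of 40 genes of fusion and adhesion tested, 10 rose and 2 fell. Mymk (myomaker) measured 0.128, 0.588 and 0.145 CPM at D0, from 4, 22 and 4 counts, and 126, 122 and 86.1 CPM at D2. Mymx (myomixer) measured 0.0428, 0.275 and 0.0161 CPM at D0, from 1, 10 and 0 counts, and 17.0, 39.1 and 18.7 CPM at D2. Both were near the detection limit at D0 and rose (adjusted p = 2.604e-06 for Mymk and 1.736e-05 for Mymx), and D0 counts this low leave their fold changes imprecise. Cdh15, which encodes M-cadherin, rose by a log2 fold change of 4.88 (SE 0.61, adjusted p = 2.452e-05), to 74.9, 67.1 and 73.4 CPM. Itga7, Jam2, Cdon, Bin1, Trim72, Tmem182 and Cav3 rose as well. Itga3 and Mcam fell. Itga3, an integrin subunit, had 301, 117 and 313 CPM at D0 and 65.1, 39.7 and 73.4 CPM at D2 (log2 fold change -1.96, SE 0.34, adjusted p = 0.0004596).

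Sarcomere genes rose together. In the thick filament list 16 of 24 genes tested rose and 1 fell, and in the thin filament list 16 of 24 rose and 1 fell, with median log2 fold changes of 6.33 and 5.41. Leaving out any KO library gave 15 or 16 thick filament genes that rose. Myh3, the embryonic myosin heavy chain, had 0.728, 5.29 and 0.565 CPM at D0 and 743, 690.4 and 639 CPM at D2 (log2 fold change 9.06, SE 1.03, adjusted p = 1.11e-05). Myosin heavy chain genes are similar in sequence and can share reads. Acta1, skeletal actin, rose from 1.34, 5.27 and 0.814 CPM to 517, 638 and 478 CPM (log2 fold change 8.23, SE 0.81, adjusted p = 3.818e-06). Mylpf, a fast myosin light chain, rose from 1.70, 7.33 and 1.11 CPM to 246, 671 and 411 CPM (log2 fold change 7.41, SE 0.64). D2 replicate 1 was the lowest of the D2 libraries for this short transcript. For Ttn, which encodes the giant protein titin, replicate 1 was instead the highest, with 815 CPM in D2 replicate 1 and 90.4 and 84.7 CPM in the other D2 libraries. Its log2 fold change was 8.37 (SE 1.25, adjusted p = 0.0001278), and 7.30 without D2 replicate 1. The members that fell were Hsp90aa1, a chaperone, and Tpm3, a tropomyosin that many non-muscle cells use (log2 fold change -1.09, SE 0.22, adjusted p = 0.001443).

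Genes of the Z-disc, the triad and the neuromuscular junction followed. Of 40 Z-disc and costamere genes 18 rose and 1 fell, of 35 triad and calcium handling genes 18 rose and 1 fell, and of 21 neuromuscular junction genes 10 rose and 1 fell. Their median log2 fold changes were 3.13, 2.78 and 2.22. Des, which encodes the intermediate filament protein desmin, measured 5.81, 3.93 and 3.82 CPM at D0 and 86.8, 103 and 87.4 CPM at D2 (log2 fold change 4.38, SE 0.52, adjusted p = 1.642e-05). Ryr1, the calcium release channel, rose from 0.271, 0.799 and 0.242 CPM to 76.2, 86.4 and 61.0 CPM (log2 fold change 7.62, SE 0.58). Among the acetylcholine receptor subunits, Chrna1, Chrnb1, Chrnd and Chrng rose. Chrng, the embryonic gamma subunit, had 0.642, 1.06 and 0.0484 CPM at D0 and 39.9, 54.1 and 39.7 CPM at D2 (log2 fold change 7.10, SE 0.91, adjusted p = 3.214e-05). The receptor clustering genes Musk, Rapsn, Dok7 and Lrp4 also rose. The members that fell were Hspb1, Fkbp1a and Etv4. With the length trend within groups removed, which left fold changes as they were, Hspb1 (adjusted p = 0.11) and Fkbp1a (adjusted p = 0.0533) were not called. Hsp90aa1, Hspb1 and Fkbp1a were not called without D0 replicate 1, D0 replicate 3, D2 replicate 2 or D2 replicate 3. Over the 5 structural lists, 78 different genes rose, and D0 replicate 2 was the highest D0 library for 44 of them (56.4%, against 39.1% of all genes tested). Of 22 genes of the dystrophin-glycoprotein complex 8 rose and 0 fell, with a median log2 fold change of 0.844, and without D0 replicate 3 only 5 rose.

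Some genes, most of them of muscle, were at or below 3 counts in each D0 library and at 10 CPM or more in each D2 library. There were 7 such genes and 0 of the reverse kind, and at a level of 1 CPM there were 40 and 3. Against 3 counts per library, Myh1 was at least 244-fold higher at D2, Unc45b, a myosin chaperone, at least 244-fold, Cav3, the muscle caveolin, at least 222-fold, and Klhl40 at least 205-fold. Mybpc1, Shisal1 and Cacna1s, the voltage sensor of the triad, were at least 162-fold, 157-fold and 138-fold higher. Ckm, the muscle creatine kinase, stayed under the level set for a call, with 4.66, 8.45 and 5.54 CPM at D2, although its log2 fold change was 6.06 (SE 0.48, adjusted p = 9.573e-07).

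**Figure D3:**
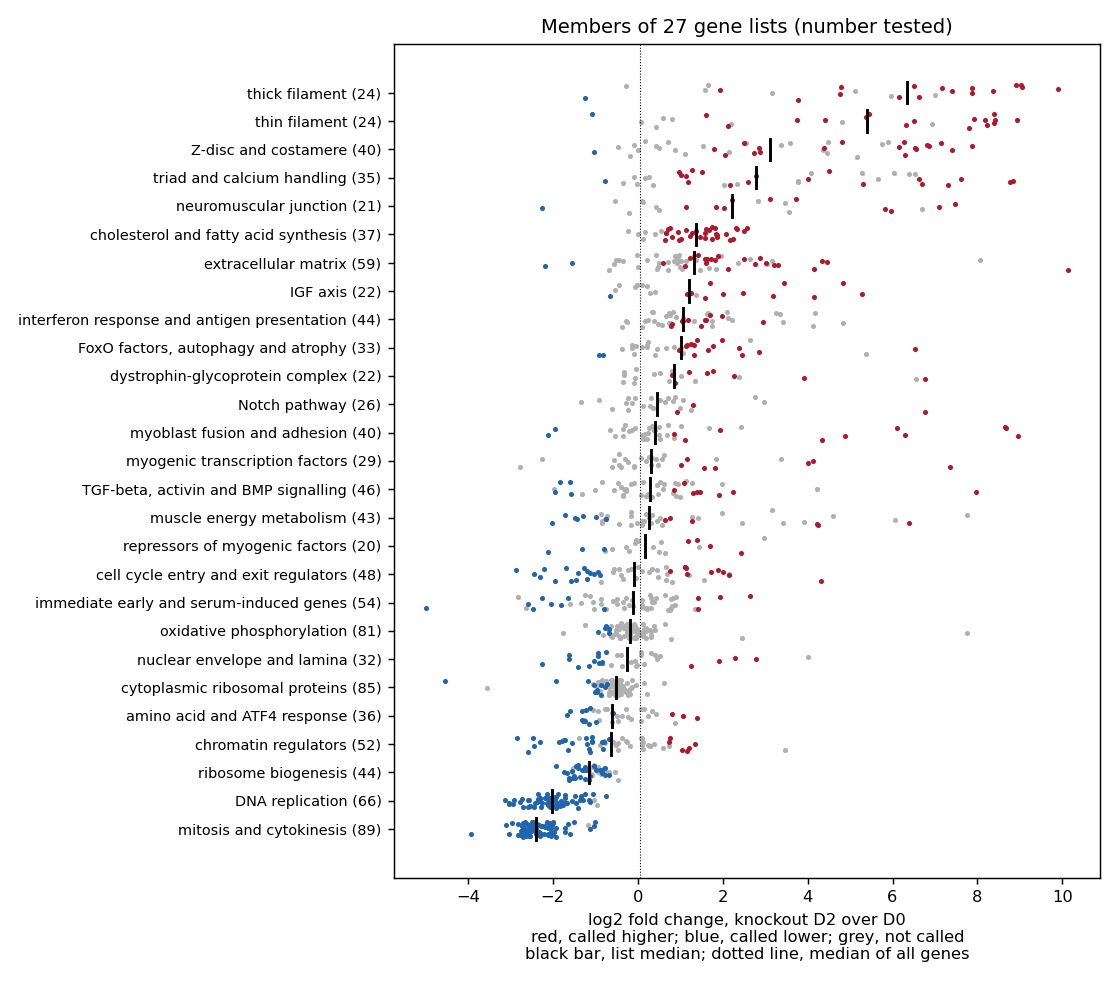
Log2 fold change KO D2 over D0 of each gene tested in 27 lists, which are ordered by their median (black bar). The lists of sarcomere genes have the highest medians (6.33 for thick and 5.41 for thin filament), and DNA replication (-2.02) and mitosis (-2.40) have the lowest.

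Genes of the cell cycle fell nearly without exception. Of 66 DNA replication genes tested 64 fell and 0 rose, with Rfc3 and Rpa3 not called, and of 89 genes of mitosis and cytokinesis 88 fell and 0 rose, with Ckap5 not called. The medians were -2.02 and -2.40 on the log2 scale. Without any 1 KO library, 61 to 63 and 86 to 88 of them fell. Cdk1, the mitotic kinase, measured 161, 254 and 234 CPM at D0 and 24.3, 33.6 and 48.8 CPM at D2 (log2 fold change -2.64, SE 0.35, adjusted p = 4.593e-05). Every D2 library lay more than 100 CPM below every D0 library. Ccnb1, its cyclin partner, fell from 210.2, 214 and 273 CPM to 37.5, 37.2 and 49.9 CPM (log2 fold change -2.49, SE 0.26). Rrm2, a subunit of ribonucleotide reductase, fell from 244, 178 and 306 CPM to 28.4, 24.8 and 33.8 CPM (log2 fold change -3.04, SE 0.24). Mki67 and Mcm2, long used as marks of proliferation and licensing, fell by 2.56 (SE 0.45) and by 1.93 (SE 0.34) on the log2 scale. As shares of all counts, DNA replication genes took 0.658%, 0.565% and 0.66% of the D0 libraries and 0.147%, 0.167% and 0.236% of the D2 libraries. In bulk RNA, fewer cycling cells and less of these mRNAs per cell cannot be told apart.

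The regulators of cell cycle entry and exit were split, with 10 rising and 16 falling of 48 tested, or 15 and 18 with the replicate block. Cdkn1a, which encodes the inhibitor p21, measured 13.3, 7.23 and 12.6 CPM at D0 and 270.5, 223 and 161 CPM at D2. It rose in these p53-deficient cells by a log2 fold change of 4.32 (SE 0.36, adjusted p = 1.272e-06). Rb1, the retinoblastoma gene, rose from 11.2, 6.73 and 9.18 CPM to 38.8, 27.5 and 24.0 CPM (log2 fold change 1.74, SE 0.35, adjusted p = 0.00142). Cdkn2a, Cdkn2b, Ccng2, E2f2, Btg1, Gadd45a, Mxd1 and Mxd4 rose as well. Ccnd1, the G1 cyclin D1, fell from 242, 103 and 249 CPM to 55.2, 19.1 and 59.2 CPM (log2 fold change -2.21, SE 0.44, adjusted p = 0.001311). Ccnd3, which encodes cyclin D3, had a log2 fold change of 0.45 and was not called (adjusted p = 0.2962). The E2F genes E2f1, E2f5, E2f6, E2f7 and E2f8 fell while E2f2 rose, from 3.27, 3.96 and 4.08 CPM to 13.9, 21.0 and 15.96 CPM (log2 fold change 2.15, SE 0.23). Myc fell by 1.19 on the log2 scale (adjusted p = 0.02734), a call that was lost without D0 replicate 1, D0 replicate 3, D2 replicate 2 or D2 replicate 3.

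The promoter of Cdk1 is shown because the genes of mitosis were the list with the lowest median, and was chosen after its matches were seen. It is the 250 bases before the RefSeq start on GRCm38.p6, chr10:69352913-69353162 (minus strand), 5′ to 3′ on the strand of the gene. Capitals mark the CHR element, to which repressor complexes of cell cycle genes bind and which was searched as TTTGAA. They also mark the box of NF-Y, searched as CCAAT. Sites of E2F factors, searched as TTTCGCGC, TTTGGCGC and TTTCCCGC, are in capitals too, and each search covered both strands. For the CHR element the variant TTCGAA was counted as well.
Cdk1: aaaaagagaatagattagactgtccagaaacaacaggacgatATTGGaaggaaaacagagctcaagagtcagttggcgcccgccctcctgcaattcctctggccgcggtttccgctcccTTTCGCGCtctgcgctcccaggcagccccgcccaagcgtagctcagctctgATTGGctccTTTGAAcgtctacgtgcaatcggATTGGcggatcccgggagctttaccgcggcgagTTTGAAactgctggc
It held TTTGAA at positions -71 to -66 and -15 to -10 from the start, 3 CCAAT boxes on the reverse strand, and TTTCGCGC. A CHR element was found in 26 of 69 matched promoters of the mitosis list (37.7%) and in 5 of 44 of the DNA replication list (11.4%), against 12.3% of the genes tested and 17.9% of all promoters. E2F sites were found in 8.7% and 20.5% of the lists, against 3.0% of the genes tested and 1.6% of all promoters. CCAAT was found in 66.7% and 61.4% of the lists, against 37.2% and 34.7%.

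Genes of the sterol pathway rose. Of 37 genes of cholesterol and fatty acid synthesis tested, 31 rose and 0 fell, with a median log2 fold change of 1.38. Those that rose included the cholesterol route enzymes Acat2, Hmgcs1, Sqle, Lss and Dhcr7, the regulators Srebf1, Srebf2, Insig1 and Insig2, and the desaturases Scd1, Scd2, Fads1 and Fads2. The 6 not called were Scap, Acly, Acaca, Fasn, Elovl6 and Me1, most of which serve fatty acid synthesis. Insig1, which retains the sterol sensor in the endoplasmic reticulum, measured 36.4, 44.1 and 26.1 CPM at D0 and 195, 229 and 172 CPM at D2 (log2 fold change 2.51, SE 0.23, adjusted p = 2.167e-06). Msmo1, a sterol demethylation enzyme, rose from 41.4, 44.97 and 30.0 CPM to 187, 199 and 181 CPM (log2 fold change 2.30, SE 0.23). The stages of both genes were well apart. The share of the list in all counts was 0.337%, 0.175% and 0.217% at D0 and 0.687%, 0.556% and 0.641% at D2. The serum, which carries lipoproteins, was also lowered between the stages, and its part in the result was not tested. Without any 1 KO library, 25 to 32 members rose.

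The promoter of Hmgcs1, which encodes the cytosolic HMG-CoA synthase, was chosen after its letters were seen. The gene had 103, 47.9 and 48.5 CPM at D0 and 307, 207 and 187 CPM at D2 (log2 fold change 1.88, SE 0.33, adjusted p = 0.0005497). The 250 bases before its RefSeq start are chr13:119690101-119690350 on GRCm38.p6 (plus strand), with capitals for TCACNCCAC, a form of the sterol regulatory element, and for CCAAT boxes, both searched on both strands.
Hmgcs1: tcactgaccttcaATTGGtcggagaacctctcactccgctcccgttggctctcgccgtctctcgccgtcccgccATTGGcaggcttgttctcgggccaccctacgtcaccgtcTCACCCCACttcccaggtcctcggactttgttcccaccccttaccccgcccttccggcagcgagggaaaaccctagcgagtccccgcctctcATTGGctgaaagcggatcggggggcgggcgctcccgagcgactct
TCACNCCAC was present in 1 of 21 matched promoters of the list, against 0.9% of the genes tested and 1.0% of all promoters. CCAAT was present in 16 of 21 (76.2%).

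Genes of the insulin-like growth factor axis rose, 11 of 22 tested, and 1 fell. Igf2 measured 99.1, 52.0 and 58.2 CPM at D0 and 1504, 1095 and 1036 CPM at D2 (log2 fold change 4.16, SE 0.65, adjusted p = 0.0001984). Igfbp5, a binding protein of the same factors, rose from 27.1, 15.3 and 11.4 CPM to 779, 493 and 712 CPM (log2 fold change 5.27, SE 0.40, adjusted p = 6.442e-07). Igfbp4 rose by a log2 fold change of 4.84 (SE 0.48). Igf1, Igf2r, Irs1, Pik3r1, Igfbp2, Igfbp3, Igfbp6 and the imprinted RNA H19 also rose. Igf2bp1, an RNA-binding protein, fell by 0.66 on the log2 scale (SE 0.19, adjusted p = 0.01477), a call that was lost without D0 replicate 3 (adjusted p = 0.0846) or D2 replicate 2 (adjusted p = 0.0756) and, on the size of the change, with library totals as the scaling (log2 fold change -0.55).

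Of 43 genes of energy metabolism 6 rose and 7 fell, against 8.71% and 9.99% of all genes tested. The 7 that fell were the glycolytic Eno1, Pgam1, Ldha, Aldoa, Pgk1 and Gapdh together with Pdk4, and those that rose included the muscle forms Pygm and Pgam2, the latter below the level of a call without D2 replicate 2. Ldha, lactate dehydrogenase A, measured 1326, 1038 and 1369 CPM at D0 and 335, 255 and 340.1 CPM at D2 (log2 fold change -2.01, SE 0.21, adjusted p = 5.319e-06). With the replicate block 11 members fell, without D0 replicate 1 or D0 replicate 3 only 4 fell, and without D2 replicate 2 only 2 rose. Of 81 genes of oxidative phosphorylation 5 fell and 0 rose, against 9.99% and 8.71% of all genes tested. With the block 12 fell and 2 rose, and with the length trend within groups removed 8 fell and 2 rose. Without D0 replicate 3, 3 fell, and without D2 replicate 1, 2 rose.

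Of 44 ribosome biogenesis genes tested 28 fell and 0 rose, with a median log2 fold change of -1.14, and 42 fell with the replicate block. Nop56, a core protein of box C/D snoRNPs, measured 441, 710.0 and 789 CPM at D0 and 177, 141 and 182 CPM at D2 (log2 fold change -1.92, SE 0.29, adjusted p = 0.0001506). Of 85 cytoplasmic ribosomal protein genes 11 fell and 0 rose, a share near the 9.99% of all genes that fell, and 30 fell with the block. Their median was -0.52, against -0.333 for all transcripts under 1000 bases. Without D0 replicate 3, without D2 replicate 1 or without D2 replicate 3, 5 or 6 fell. Their share of all counts was 7.02%, 12.8% and 8.81% at D0 and 4.66%, 10% and 7.29% at D2, so replicate 2 was highest and replicate 1 lowest in both stages, as for other short transcripts. Of 36 genes of the amino acid and ATF4 response 11 fell, among them Atf4, Asns, Psat1 and Phgdh. In the same list 3 rose, a share near the 8.71% of all genes that rose. With the block 17 fell. The number that fell was 6 or 7 without D0 replicate 1, D0 replicate 3 or D2 replicate 2.

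**Figure D4:**
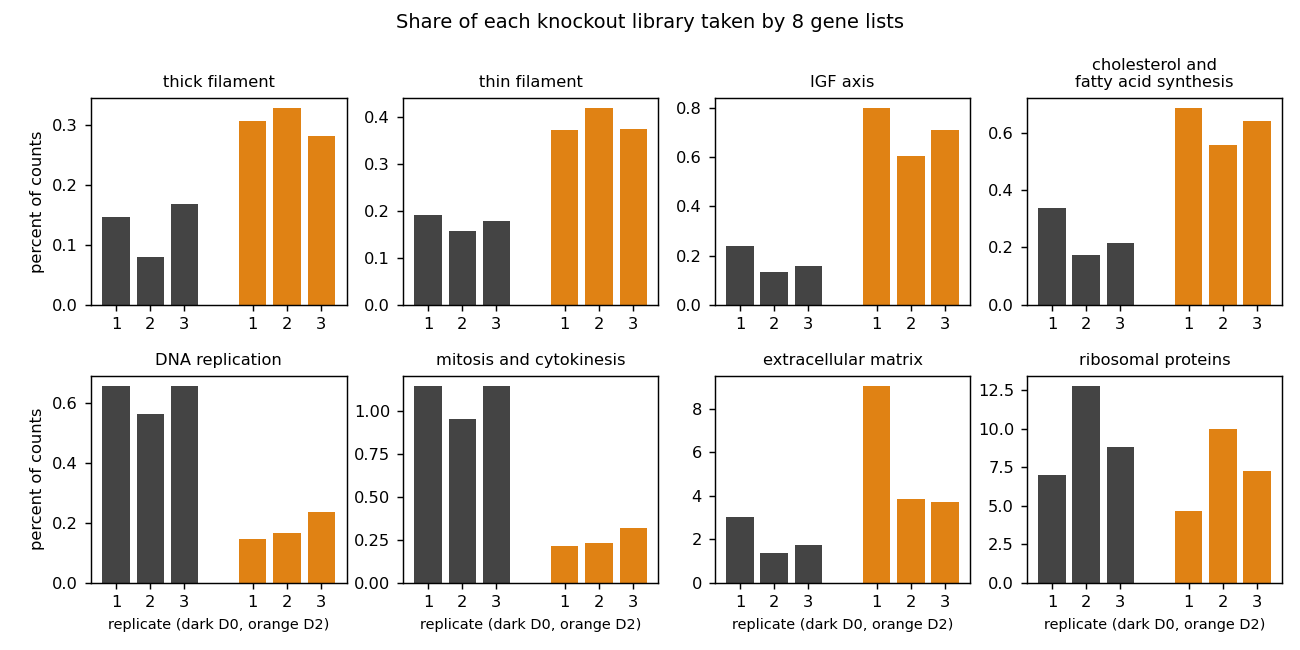
Percent of all expected counts taken by 8 gene lists in each KO library, with D0 in dark and D2 in orange and the replicate number on the x axis. The D2 bars of thick filament (0.281% to 0.328%) exceed the D0 bars (0.0798% to 0.168%), while extracellular matrix is highest and ribosomal proteins are lowest in replicate 1 at both stages.

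Of 59 extracellular matrix genes 21 rose and 2 fell, with a median log2 fold change of 1.33, and with the replicate block 39 rose. Mmp2, the gelatinase, measured 18.1, 5.63 and 5.21 CPM at D0 and 409.8, 174 and 60.4 CPM at D2 (log2 fold change 4.33, SE 0.90, adjusted p = 0.001922). Col1a1, the main chain of collagen I, had 2950.0, 711 and 564 CPM at D0 and 13453, 3754 and 3182 CPM at D2. Its stages did not overlap, replicate 1 was several times the others in both, and it was not called (log2 fold change 2.36, SE 1.04, adjusted p = 0.1028) except with the block (adjusted p = 0.000137). Dcn, the proteoglycan decorin, had 4, 1 and 0 counts in the D0 libraries and 60.7, 47.6 and 40.4 CPM at D2 (adjusted p = 9.573e-07). Has2, a hyaluronan synthase, fell by 2.19 on the log2 scale (SE 0.51, adjusted p = 0.004613), and Spp1 (osteopontin) fell too. Without any 1 KO library, 15 to 21 members rose.

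Several of these genes are also made by fibroblasts. Of 10 fibroblast markers tested 4 rose (Pdgfra, Dcn, Pdpn and Dpt), and 5 were under 10 CPM in every library and could not be called. In 9 of the 10 every D2 library lay above every D0 library, against 20.2% of all genes tested. The median log2 fold change was 3.54. The summed level of the fibroblast markers was 60.2 to 123.4 CPM at D0 and 348 to 552 CPM at D2. Of 10 markers of the muscle lineage 6 rose (Myod1, Myog, Des, Cdh15, Itga7 and Chrna1), with a summed level of 193 to 357 CPM at D0 and 923 to 1048 CPM at D2. Pax7 and Msc were not analysed here. Endothelial markers summed to 7.92 to 8.67 CPM at D0 and 7.79 to 15.6 CPM at D2, and macrophage markers to 9.34 to 14.2 CPM at D0 and 7.04 to 8.05 CPM at D2. Cardiac markers summed to 2.60 to 7.78 CPM at D0 and 8.46 to 12.8 CPM at D2, without overlap, and Schwann and neural markers to 17.7 to 32.55 CPM at D0 and 45.2 to 59.9 CPM at D2, again without overlap. Each of these lists held 10 genes, and the sums cover the 7 endothelial, 4 macrophage, 5 cardiac and 6 Schwann and neural genes with values. No call could be made for most of the genes tested. Of these, 6 of 7 endothelial, 4 of 4 macrophage, 4 of 4 cardiac and 3 of 5 Schwann and neural markers were under 10 CPM in every library. Of 8 smooth muscle markers Acta2 and Mylk rose and Cnn1 fell, of 6 adipocyte markers Pparg fell, and of 7 cartilage and bone markers Col2a1 and Alpl fell. The call of Cnn1 was lost without D0 replicate 1, D0 replicate 3 or D2 replicate 2 (adjusted p = 0.0815 to 0.176), and that of Pparg without D0 replicate 1, D2 replicate 2 or D2 replicate 3 (adjusted p = 0.0914 to 0.156). The part of other cell types in the results was not tested.

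Of 54 serum-induced genes 4 rose, a share near the 8.71% of all genes tested, and 8 fell, against 9.99% of all genes tested. With the replicate block 6 rose and 12 fell. Serpinb2, Fosl1, Plaur, Ier5, Dusp5, Etv4, Hmga1 and Hmga2 fell, and Spry1, Spry4, Dusp1 and Plat rose. Spry1, an inhibitor of receptor tyrosine kinase signalling, measured 8.21, 8.72 and 6.18 CPM at D0 and 43.6, 45.2 and 54.1 CPM at D2 (log2 fold change 2.64, SE 0.19, adjusted p = 5.915e-07). With D2 replicate 1 left out 16 members fell, and without any other KO library but D0 replicate 2 only 3 to 5 fell. Without D0 replicate 2, D0 replicate 3 or D2 replicate 1, 2 rose. In the TGF-beta, activin and BMP list 8 of 46 rose, or 12 with the block, and 4 fell, a share near the 9.99% of all genes. The 4 were Inhba and the SMADs Smad6, Smad7 and Smad9, and 7 fell with the block or 2 without D2 replicate 2 or D2 replicate 3. In the Notch list 3 of 26 rose, against 8.71% of all genes tested, with 6 under the block. Dll1, a Notch ligand, had 0.0807 to 0.196 CPM at D0 and 12.2, 17.7 and 12.1 CPM at D2 (log2 fold change 6.77, SE 0.80, adjusted p = 1.609e-05).

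Of 33 genes of FoxO, autophagy and atrophy 14 rose and 2 fell, with a median log2 fold change of 1.01. The 2 that fell, Fbxo21 and Psmd11, were not called without D0 replicate 1, D0 replicate 3, D2 replicate 2 or D2 replicate 3. Those that rose included the ubiquitin ligases Fbxo32 and Trim63, the autophagy genes Map1lc3a, Map1lc3b, Gabarap and Sqstm1, and the lysosomal Ctsl, Ctsd and Lamp1. Cebpd was counted among them (adjusted p = 0.03877), with 124 CPM in D2 replicate 1 against 19.2 and 12.5 CPM in the other D2 libraries. Its call was lost with voom weights (adjusted p = 0.0557) and without any 1 of the KO libraries other than D2 replicate 3 (adjusted p = 0.0534 to 0.177). Of 44 genes of the interferon response and antigen presentation 11 rose and 0 fell, with a median of 1.06. They included Stat2, Irf9, Bst2, H2-K1 and Tapbp. Ifi27 measured 6.75, 11.2 and 4.50 CPM at D0 and 45.5, 83.0 and 42.1 CPM at D2 (log2 fold change 2.96, SE 0.36, adjusted p = 2.055e-05). Without D0 replicate 3 or D2 replicate 1, 7 members rose, and Tapbp was not called without D2 replicate 1 (adjusted p = 0.0514).

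Of 52 chromatin regulators 22 fell and 6 rose, against 9.99% and 8.71% of all genes tested. Without D0 replicate 3, 3 rose. In the Polycomb complex PRC2, Ezh2, Eed and Suz12 fell and Ezh1 rose. Ezh2 measured 176, 111 and 184 CPM at D0 and 45.2, 42.6 and 50.6 CPM at D2 (log2 fold change -1.73, SE 0.20, adjusted p = 1.284e-05), and Ezh1 measured 18.1, 16.1 and 12.7 CPM at D0 and 19.4, 35.5 and 24.8 CPM at D2 (log2 fold change 0.73, SE 0.22, adjusted p = 0.01843). The other members that rose were Kdm5b, which was not called without D0 replicate 2, D0 replicate 3 or D2 replicate 1 (adjusted p = 0.0739 to 0.0998), Kat2b, Hdac11 and the SWI/SNF subunits Smarca2 and Smarcd3. Hmgb3, a high-mobility group protein, fell from 82.6, 73.5 and 96.1 CPM to 11.7, 9.48 and 13.9 CPM (log2 fold change -2.85, SE 0.23), and Hmgb1, Hmgb2, Hells and Suv39h1 fell as well.

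The same change was called for 2962 of 17672 genes in WT (16.8%), of which 1499 rose (8.48%) and 1463 fell (8.28%), and 2600 genes were called in both genotypes, 78.7% of the KO and 87.8% of the WT genes, with 0 in opposite directions. The difference of the change between the genotypes, tested as an interaction with limma, was called for 0 genes. It had an unadjusted p under 0.05 for 315 genes (1.78%), a smaller share than this threshold gives where no gene differs. The number was 344 with voom weights and 655 with the replicate block, and 0 were called with either. Myog had log2 fold changes of 7.35 in KO and 7.85 in WT (SE 0.69 in each, unadjusted p of the difference 0.6126). Cdkn1a rose from a mean of 11.04 to 218 CPM in KO and from 9.26 to 423 CPM in WT, a difference of -1.18 on the log2 scale (SE 0.51, unadjusted p = 0.03464, adjusted p = 1.0). For Myod1 the changes were 4.01 and 5.23 (SE 0.53 in each, unadjusted p = 0.1271), and for Cdk1 -2.64 and -2.22 (SE 0.35 in each, unadjusted p = 0.4172). Rpl27, which fell in KO (log2 fold change -1.93), had a change of -0.28 in WT (unadjusted p of the difference 0.01068). Its reads can be shared with pseudogenes. The median log2 fold changes of KO and WT were 6.33 and 6.66 for thick filament, 5.41 and 5.996 for thin filament, 1.38 and 1.43 for cholesterol and fatty acid synthesis, and -2.40 and -2.14 for mitosis. The SE of the difference was 0.98 for Myog, against 0.51 for Cdkn1a, which limits what 3 libraries per group can show. Mean D2 levels were lower in KO than in WT for Myh3 (691 and 1374 CPM), Acta1 (544 and 1135 CPM), Mymk (111 and 226 CPM) and Myog (198 and 393 CPM). Of the largest rises named above, only Ttn had the higher mean in KO (330 and 211 CPM). The difference between KO and WT at D2 was not tested. The paper reports genes that differed between them at that stage, most of them lower in KO, and impaired differentiation of KO cells.

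**Figure D5:**
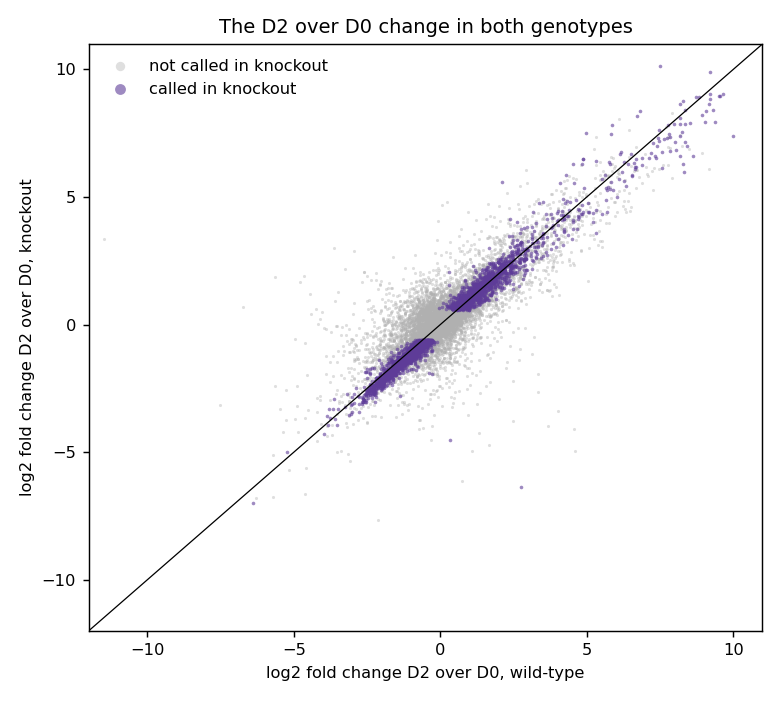
Log2 fold change D2 over D0 of each gene in WT (x axis) and KO (y axis), with the 3305 genes called in KO in purple and the line of equal change drawn. The purple points lie along the line in both directions, and 0 genes passed the test of the difference. The plot shows changes between the stages and not the levels at D2.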

How the data were processed

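RNA was sequenced from p53-deficient mouse myoblasts of 2 genotypes at 3 stages, 3 libraries each. The submitters' processing notes name cutadapt, RSEM and edgeR and the GRCm38 build; per the methods, reads were mapped with NextGenMap to the transcriptome, expected counts were summed to genes, genes with low counts were removed, and TMM factors and limma-voom were applied. The values the authors deposited are CPM, the expected count plus 0.5 over the TMM-scaled library total. Expected counts were recovered from these values (34.9% to 47.2% of those under 20 are whole within 0.001), so no whole-count test was used.

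Of 19153 deposited genes, the 17672 that exceeded 5 recovered counts throughout any group were fitted with limma 3.58.1 in R 4.3.3 (lmFit, eBayes with a variance trend) on log2 CPM. All 18 libraries entered as 6 groups of a single factor, with a common estimate of the spread for each gene. The median SD of log2 CPM was 0.463 in KO D0, 0.418 in KO D2, 0.451 in WT D0 and 0.462 in WT D2. It was 0.277 and 0.258 in the proliferating WT and KO groups, so the common estimate draws on tighter groups too. Called genes had a Benjamini-Hochberg adjusted p under 0.05 over all genes tested, a change over 1.5-fold and a library that reached 10 CPM. Fold changes are from group means of log2 CPM. Library totals were 26437823 to 41619016. Same-numbered KO libraries deviated together between D0 and D2 (correlations across genes 0.408, 0.443 and 0.151), and in WT these were 0.454, 0.47 and 0.01. Between WT and KO they were 0.503, 0.47 and 0.355 at D0 and 0.645, 0.367 and 0.276 at D2. What libraries of the same number share was not tested. The study blocked on the sequencing lane, which the labels do not give. The main fit had no block, and a block for the replicate number in the labels was an alternative. Blocked values are given where they end a call or move a count by over 1.5 times, and for some other lists. The script was checked on simulated data before use. Lists are described by counts and medians and were not tested as sets.

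The comparison, the gene lists and the named genes were chosen with earlier results of these data known. Genes named are the 10 largest rises and 10 largest falls among called genes whose libraries did not overlap, ranked by log2 of the ratio of mean CPM plus 1, up to 2 rises and 2 falls of each list by the same rule, and a fixed set of myogenic, cell cycle and nuclear envelope genes. Other list members are named without values or as part of their list, and values for Ezh2, Ezh1 and Hmgcs1 were chosen after they were seen. Alternatives covered the scaling, weights, filters, pseudocount, thresholds, the block, the groups fitted and leaving out each library. Removal of the length trend within groups was added after the data were seen. Gene positions and transcript lengths (the longest per gene) are from GENCODE M21 on GRCm38, and promoters from RefSeq on GRCm38.p6, matched by symbol, and those shown were chosen after their matches were seen. Python 3.11.15 and matplotlib 3.10.9 were used for summaries and plots. Some members of the gene lists are not reported here by name.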

Additional observations from a re-analysis of the deposited data

How the results depend on the processing

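The number of genes called in KO D2/D0 was 3305, and it ranged from 2274 to 3419 without a single KO library. It was 4567 with the replicate block, 2237 with only the groups compared fitted and 1220 with a log2 fold change over 1.5. In WT it was 1146 with that threshold and 1596 with only the groups compared fitted, and 2050 to 3490 without a single WT library. Unadjusted p-values gave 57 genes for the genotype difference, with 0 called when any library was left out; the smallest adjusted p was 0.000278 without KO D0 replicate 1, for a gene that missed the fold or level of a call, and 0.571 with the block. The genes at or below 3 counts at D0 numbered 40 at a level of 1 CPM, with 3 of the reverse kind. The cause of these shifts was not tested, beyond the stricter threshold, fewer libraries or lower level itself. With library totals alone the median log2 fold change of all genes was 0.166 in place of 0.056, and 44.6% of the called KO genes fell in place of 53.4%; in WT 38.1% fell in place of 49.4%. Among 118 named genes, 1814 of 1887 comparisons kept direction and side of the threshold, 67 lost and 5 gained the call, and Myf6 (main value -0.40) ranged from -0.82 to 0.38 without a single KO library and turned to 0.38 without KO D2 replicate 1. The replicate block changed the call of no named gene but Lmna and Col1a1. With only the KO D0 and D2 groups fitted, Hspb1, Fkbp1a, Igf2bp1, Psmd11, Uqcrc1, Pparg, Cnn1, Id3 and Myc were not called (adjusted p = 0.0593 to 0.106). Removing the length trend within groups gave 3559 genes in KO. Each group had 3 libraries, and counts of 3 or fewer limit the fold changes of genes near 0.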
